A study of Mus musculus with 12 samples.

Results

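The corticosteroid receptors and the enzymes that set their steroid supply were followed in whole mouse hearts on 12 arrays. The set holds 5 of the 27669 gene names on the array, Nr3c1, Nr3c2, Hsd11b1, Hsd11b2 and H6pd. They were measured by all transcript probes that carry one of these names or an older synonym in the scanner files, 11 of 41174 probes. A pair of Gpd1 probes was left out: Gpd1 is also an old synonym of H6pd, but their accession belongs to another gene. Of the 11 probes, 8 were well above background on every array of at least 1 group and were tested: 4 for Nr3c1, 2 for H6pd and 1 each for Nr3c2 and Hsd11b1. The other 3 are 2 Nr3c2 probes and the only Hsd11b2 probe.

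Nr3c1 encodes the glucocorticoid receptor and Nr3c2 the mineralocorticoid receptor, steroid-activated transcription factors that are held by chaperones in the cytoplasm until a hormone binds and then act in the nucleus. Both bind corticosterone, the main glucocorticoid of mice, and the mineralocorticoid receptor also binds aldosterone. Hsd11b1 encodes an enzyme of the endoplasmic reticulum that regenerates corticosterone from its inactive 11-keto form, H6pd the lumenal enzyme that supplies it with NADPH, and Hsd11b2 the enzyme that inactivates corticosterone, best known from the aldosterone-responsive cells of the kidney.

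The groups were cardioGRMRdKO hearts at 1 and 2 months of age and dflox hearts at 1 and 2 months, 3 hearts of male C57BL/6 mice in each. cardioGRMRdKO mice, called knockout here, carry floxed alleles of both receptor genes and a Cre recombinase driven in cardiomyocytes by the αMHC promoter. dflox mice are their littermates with the same floxed alleles and no Cre. All animals therefore carry the floxed alleles, and no group carried Cre without them, so receptor loss and Cre cannot be told apart. Each group's hearts came from separate mice. The labels do not name the deleted exons, so it is not known whether a probe lies in a deleted stretch, and a probe outside it is no check of the deletion. In whole hearts, fewer cells of a type and less RNA per cell cannot be told apart, and other cell types keep their receptor genes.

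Per array, 63.7% to 71.9% of the 43379 transcript spots were well above background, and the 75th percentile of intensity, to which each array was scaled, was 479 to 1079. The highest belonged to knockout 2-month replicate 3. Levels below are log2 intensities relative to that percentile, so 0 is the array's 75th percentile, and a level of 1 probe says nothing about that of another. Cardiomyocyte markers were bright in every heart (10 of 10 on the array, 8 to 10 above background, summed log2 level 10.8 to 11.4). In such counts a marker whose spots were all marked as outliers by the scanner software counts as not above background. The sums keep these spots. The arrays lay on 3 slides of 4 places. At 1 month every knockout array had an inner place and every dflox array an outer one, so at that age place and genotype cannot be told apart. Airway epithelium markers also differed at 1 month, with a summed log2 level of 0.11 to 2.29 in knockout and 5.75 to 6.91 in dflox hearts (5 of 6 markers above background on each knockout array, 6 of 6 on each dflox array). At 2 months they ran from −0.06 to 7.24 in knockout and from 0.10 to 7.27 in dflox hearts. Other marker lists, out of a larger set examined, also separated the genotypes by summed level. Among all tested probes, taken singly, 9.26% separated in the lower direction at 1 month and 17.1% in either direction at 2 months. No such share is given for sums over several genes, or for the higher direction at 1 month. At 1 month fibroblast markers summed to 8.10 to 8.21 in knockout against 8.26 to 8.29 in dflox hearts, endothelial markers to 5.48 to 5.54 against 5.55 to 5.62 and mesothelium markers to 1.67 to 2.67 against 2.75 to 3.05, all on the array and lower in knockout. By summed level, smooth muscle and pericyte markers (6 of 6 on the array) were higher in knockout at both ages. The margin was bare at 1 month (7.38 to 7.49 in knockout against 6.97 to 7.38 in dflox hearts). At 2 months they summed to 7.01 to 7.32 against 6.76 to 6.85. The mean log2 level of these markers was instead lower in knockout at 1 month (3.64 to 3.67 against 3.68 to 3.92). At 2 months that mean overlapped (3.42 to 3.63 in knockout against 3.45 to 3.53 in dflox hearts). Macrophage markers (6 of 6) were higher in knockout at 2 months, at 3.97 to 4.32 against 3.80 to 3.83 in dflox hearts. Skeletal muscle markers (4 of 4) were lower in knockout at 1 month, at 7.28 to 7.42 against 7.52 to 7.56 in dflox hearts. By mean log2 level, the endothelial and skeletal muscle lists overlapped between the genotypes at 1 month. By that measure macrophage markers were higher and cardiomyocyte markers lower in every knockout heart at 1 month. The part of these lists in the genotype differences below was not tested.

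The sequences of the Nr3c2 probes are shown because only 1 of the 3 gave a usable signal, and that of the Hsd11b2 probe because it is the only measure of that gene here. All are given 5′ to 3′ as deposited, all in lower case, with positions on mouse build mm7 from the scanner files. The 3 Nr3c2 probes lie on the plus strand of chromosome 8, at chr8:75452132-75452191, chr8:75452671-75452730 and chr8:75453269-75453328, so they start 539 and 1137 bases downstream of the first. Only the middle one was tested. The Hsd11b2 probe covers chr8:104121524-104121741, also on the plus strand. Its 60 bases span 218 bases of the genome, so the match is in pieces.
Nr3c2 A_51_P377914: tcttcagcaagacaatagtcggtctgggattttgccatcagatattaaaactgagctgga
Nr3c2 A_52_P378137: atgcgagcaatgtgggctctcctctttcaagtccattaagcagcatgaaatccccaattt
Nr3c2 A_52_P264543: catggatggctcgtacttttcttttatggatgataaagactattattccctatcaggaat
Hsd11b2 A_51_P410205: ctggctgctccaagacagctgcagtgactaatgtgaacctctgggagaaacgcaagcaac
The G and C content of the Nr3c2 probes is 41.7%, 45% and 35% in that order, and that of the Hsd11b2 probe 53.3%. Over all probes the median is 40%, with 31.7% and 55% at the 5th and 95th percentiles.

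The glucocorticoid receptor gene was lower in knockout hearts. Over both ages, 2 of its 4 probes passed the test, by 1.88-fold and 1.84-fold, and the other 2 pointed the same way without passing. The 4 probes lie on the minus strand of chromosome 18. In the direction of transcription they are A_52_P254174 (chr18:39790806-39790865), A_51_P355693 (chr18:39790613-39790672), A_52_P63106 (chr18:39789494-39789553) and A_52_P138090 (chr18:39787242-39787301, annotated through a separate cDNA record), the last 3 being 193, 1312 and 3564 bases downstream of the first. Exons and UTRs are left unnamed because no annotation of build mm7 was used.

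The most downstream probe, A_52_P138090, separated the genotypes most clearly. At 1 month, its log2 level was 1.35 and 1.50 in knockout replicates 2 and 3, against 2.27 and 2.04 in dflox replicates 1 and 2. The spots of knockout replicate 1 and dflox replicate 3 were marked by the scanner software as unevenly lit and left out, and would have stood at 1.38 and 2.48. At 2 months, its level was 1.45, 1.14 and 1.16 in knockout hearts, against 2.51, 2.14 and 2.35 in dflox hearts. The 4 group means fell in the order knockout at 2 months (1.25 ± 0.17, SD, n = 3), knockout at 1 month (1.42 ± 0.11, n = 2), dflox at 1 month (2.15 ± 0.16, n = 2) and dflox at 2 months (2.34 ± 0.18, n = 3). No knockout heart reached any dflox heart at either age, as for 2.87% of all tested probes in the lower direction, while the 2 ages overlapped within each genotype.

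By limma on all 26979 tested probes with Benjamini-Hochberg adjustment, Nr3c1 on A_52_P138090 fell in knockout hearts at 2 months, by 1.09 on the log2 scale (SE 0.144, 95% interval −1.41 to −0.76, adjusted p = 0.00815), or 2.12-fold. At 1 month the difference was −0.73 (SE 0.176, interval −1.13 to −0.33, adjusted p = 0.149), fitted without the 2 left-out spots. With them it was −0.85 and was called (adjusted p = 0.0269). The average of both ages was −0.91 (SE 0.114, adjusted p = 0.0033). At 2 months it was −0.92 with normexp background correction (adjusted p = 0.0644), and with only the 2-month hearts in the fit the adjusted p was 0.0645. Within slide 1 the differences were −0.92 at 1 month and −1.35 at 2 months, and within slide 3 −1.11 at 2 months.

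On the upstream Nr3c1 probes the genotypes overlapped at 2 months. The differences at that age, −0.82, −0.24 and −0.72 in the direction of transcription, had the same sign as on A_52_P138090. Differences between probes were not tested. A_52_P254174 stood at −3.46, −3.77 and −3.95 in knockout hearts against −2.85, −3.08 and −2.45 in dflox hearts at 1 month. The 2-month levels were −4.06, −3.50 and −2.82 in knockout hearts against −2.45, −2.61 and −2.85 in dflox hearts. The genotypes were apart at 1 month, and at 2 months knockout replicate 3 fell among the dflox hearts. Averaged over the ages the probe fell by 0.88 (SE 0.201, adjusted p = 0.0373). Leaving out 1 heart at a time ended the call in 10 of 12 fits (adjusted p = 0.0524 to 0.103), all but those without knockout 1-month replicate 1 or knockout 2-month replicate 3. It was also lost with quantile normalization (0.06), with no filter on dim probes (0.0832) and with place in the model, where the difference was −0.66 (0.414). At the single ages the differences were −0.94 (adjusted p = 0.248) and −0.82 (0.216).

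A_51_P355693 stood at −3.89, −4.09 and −3.74 in knockout hearts against −3.70, −3.58 and −2.40 in dflox hearts at 1 month. The 2-month levels were −4.04, −3.20 and −2.60 in knockout hearts against −2.55, −2.88 and −3.70 in dflox hearts. The groups were apart by a small margin at 1 month and overlapped broadly at 2 months. A_52_P63106 stood at −1.45, −1.76 and −1.82 in knockout hearts against −1.10, −1.20 and −0.25 in dflox hearts at 1 month. Its 2-month levels were −2.06, −1.70 and −0.69 in knockout hearts against −0.30, −0.86 and −1.13 in dflox hearts. Neither probe passed the test, with averaged differences of −0.46 (95% interval −1.14 to 0.22, adjusted p = 0.496) and −0.77 (−1.35 to −0.20, adjusted p = 0.152). A_52_P63106 was called only in the fit without knockout 2-month replicate 3, among the 12 that left out 1 heart (−0.97, adjusted p = 0.0401).

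**Figure D1:**
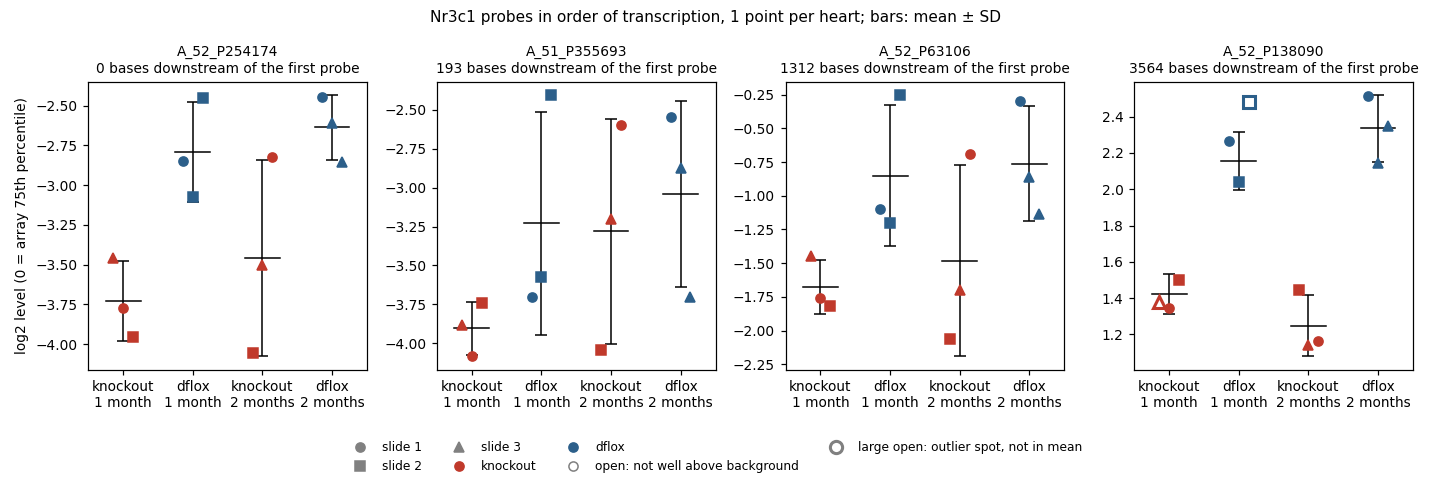
Log2 level (0 is the array's 75th percentile) of the 4 Nr3c1 probes in the 4 groups, 1 point per heart, shaped by slide, with the mean and SD of the spots used. On A_52_P138090 every knockout heart lies below every dflox heart at both ages, while on the other 3 probes knockout 2-month replicate 3 lies within the range of the dflox hearts.

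At 1 month all 4 Nr3c1 probes were lower in every usable knockout spot than in every usable dflox spot, where 9.26% of all tested probes were. At 2 months 1 of the 4 was, where 10.2% of all tested probes were. The probes of 1 gene on the same arrays are not independent. On the 3 upstream probes the heart that crossed over at 2 months was knockout replicate 3, at −2.82, −2.60 and −0.69, the highest of its group on each, and on A_51_P355693 knockout replicate 2, at −3.20, also lay within the dflox range. Replicate 3 was the only knockout array at an outer place. That array had the highest scaling intensity of the 12. With outlier spots kept, its cardiomyocyte markers summed to 10.8, against at least 11.03 on every other array. Airway markers summed to 7.24 in that heart and were nearly as high in knockout replicate 1, the lowest of its group on these probes. The part of these measures in its Nr3c1 levels was not tested. Nor was that of the fibroblast, endothelial, mesothelium, smooth muscle, macrophage and skeletal muscle markers given above. Without this heart the averaged difference of A_52_P254174 was −1.04 (adjusted p = 0.00789).

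Across arrays, the 3 upstream Nr3c1 probes moved together, with Pearson correlations of 0.78 to 0.96 over 12 arrays. A_52_P138090 correlated with them at 0.16 to 0.68 over the 10 arrays it shares with them. These correlations describe arrays that share their genotypes, slides and scaling. The named probes whose levels ran most like A_52_P138090 over those 10 arrays were Apex2 (r = 0.98), which encodes a nuclease of DNA repair, Slc25a29 (0.98), a mitochondrial amino acid carrier, and Gm10336 (0.97), the best of 23716 candidate probes.

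The mineralocorticoid receptor gene showed no difference between the genotypes that this array could resolve. The tested probe, A_52_P378137, stood at −2.94, −3.76 and −3.65 in knockout hearts against −3.44, −3.47 and −3.64 in dflox hearts at 1 month. The 2-month hearts stood at −3.66, −3.04 and −4.50 in knockout hearts against −4.49, −2.72 and −2.68 in dflox hearts. The genotypes overlapped at both ages. The difference was 0.07 at 1 month (SE 0.488, 95% interval −1.01 to 1.15, adjusted p = 1.00) and −0.44 at 2 months (SE 0.488, interval −1.52 to 0.64, adjusted p = 0.673). Averaged over the ages it was −0.19 (interval −0.95 to 0.58, adjusted p = 0.82). The interval at 2 months holds both no change and a fall as large as that of Nr3c1.

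The levels of this Nr3c2 probe were highest on slide 3, while those of slides 1 and 2 overlapped. On slide 3 they ran from −3.04 to −2.68 (4 arrays of 3 groups), on slide 2 from −3.66 to −3.47 and on slide 1 from −4.50 to −3.44. All 4 arrays of slide 3 were above all 8 others, which held for 7.33% of the probes with usable spots on every array. With slide as a fixed term the difference at 1 month was −0.26, opposite in sign to that without it. Over 12 arrays the named probes most like it were those of Sh2d6, of the odorant receptor gene Olfr549 and of 2410017I17Rik, with correlations of 0.993 to 0.996. In all, 306 of 23716 candidate probes correlated with it above 0.9.

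The probes on either side gave almost no signal. A_51_P377914 was well above background on 2 of 12 arrays, knockout 2-month replicate 2 and dflox 2-month replicate 3, both on slide 3. A_52_P264543 was well above background on 0 of 12. Their measured levels ran from −8.14 to −4.71 and from −8.41 to −7.22, and no fold is given for them. The Nr3c2 measurements therefore rest on 1 probe of 3.

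**Figure D2:**
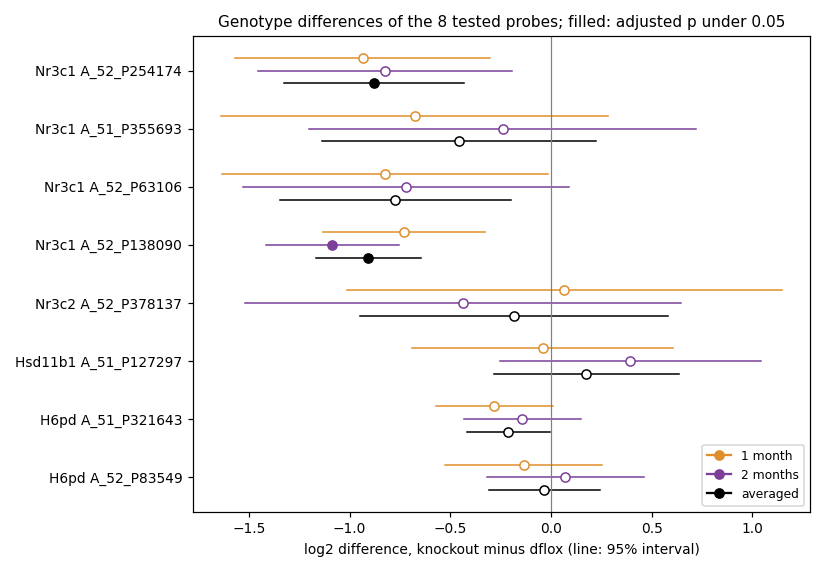
Log2 difference of knockout minus dflox for the 8 tested probes, by age and as the average of the ages, with 95% intervals. Filled points passed the test: A_52_P138090 at 2 months and averaged, and A_52_P254174 averaged, all for Nr3c1.

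In total, 0 of the 8 tested probes were called at 1 month by limma, where 0.715% of all tested probes were. At an unadjusted p under 0.05, 3 of the 8 were past the threshold at 1 month, all for Nr3c1, where 2400 of 26979 tested probes were. By that measure 2 of 8 were past it at 2 months (4055 of 26979 probes) and 4 of 8 averaged (4543 of 26979). The averaged ones included H6pd A_51_P321643. At 2 months 1 of 8 was called (1.98% of all tested probes) and averaged over the ages 2 of 8 (3.98%), all of them lower and all for Nr3c1. The change in the genotype difference between 1 and 2 months was tested directly. By limma 0% of all tested probes were called for it, with 1034 of 26979 at an unadjusted p under 0.05, and the members' adjusted p was 0.949 or above.

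Hsd11b1, the corticosterone-regenerating enzyme, showed no genotype difference that passed the test, and its levels were higher at 2 months than at 1 month without passing it. Its probe, A_51_P127297, lies on the minus strand at chr1:192774594-192774653. At 1 month it stood at 1.03, 2.30 and 1.91 in knockout hearts against 1.34, 2.08 and 1.95 in dflox hearts. The 2-month hearts stood at 2.88, 2.62 and 2.80 in knockout hearts against 2.40, 2.52 and 2.21 in dflox hearts. The genotypes overlapped at 1 month, and at 2 months every knockout heart was above every dflox heart, a separation in either direction that 17.1% of all tested probes showed. The genotype difference was −0.04 at 1 month (95% interval −0.69 to 0.61, adjusted p = 1.00) and 0.39 at 2 months (−0.26 to 1.04, adjusted p = 0.538), and neither passed.

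By age, the group means of Hsd11b1 were 2.77 ± 0.13 at 2 months against 1.75 ± 0.65 at 1 month in knockout hearts, and 2.38 ± 0.15 at 2 months against 1.79 ± 0.39 at 1 month in dflox hearts (SD, n = 3 each). In both genotypes the hearts of the 2 ages did not overlap, which held for 18.4% and 19.6% of all tested probes. The other 7 tested probes overlapped between the ages in both genotypes. The differences of 1.02 in knockout (SE 0.293, adjusted p = 0.177) and 0.59 in dflox hearts (SE 0.293, adjusted p = 0.42) did not pass, where 0.289% and 0.456% of all tested probes did. Averaged over both genotypes, a comparison added after these values were seen, the difference was 0.81 (SE 0.207, 95% interval 0.35 to 1.26), or 1.75-fold, with an adjusted p of 0.0601. In that comparison 3.85% of all tested probes passed. It passed in 3 of 23 alternatives, at 0.0479 with probes above background on all arrays, 0.0405 with slide as a fixed term and 0.0335 without knockout 1-month replicate 2, and the adjusted p ran up to 0.137 in the others.

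The lowest Hsd11b1 level, 1.03, belonged to knockout 1-month replicate 1, which was also lowest in adipocyte markers (5 of 5 on the array, summed log2 level 2.74). Adipocyte markers ran from 3.37 to 6.33 in 2-month and from 2.74 to 6.33 in 1-month knockout hearts, and from 3.97 to 6.52 in 2-month and 5.64 to 6.06 in 1-month dflox hearts. The other 2 hearts low in them, at 3.37 and 3.97, were 2-month hearts with Hsd11b1 at 2.62 and 2.52. Fibroblast markers (8 of 8 on the array) were 7.59 to 7.97 in 2-month and 8.10 to 8.21 in 1-month knockout hearts, and 7.82 to 8.02 in 2-month and 8.26 to 8.29 in 1-month dflox hearts, so they were lower at the age at which Hsd11b1 was higher. Without knockout 1-month replicate 1 the averaged age difference was 0.63 (adjusted p = 0.0727), and the genotype difference at 1 month was 0.32 in place of −0.04. The part of either cell type in the Hsd11b1 levels was not tested. The probes most like it over 12 arrays were those of Xdh (r = 0.94), which encodes xanthine dehydrogenase, the transcription regulator Arid5b (0.92) and the secreted protein gene Fetub (0.91), and 9 of 23716 candidates exceeded 0.9.

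H6pd, whose enzyme makes NADPH from glucose-6-phosphate in the endoplasmic reticulum, was measured by 2 probes on the minus strand of chromosome 4, A_52_P83549 (chr4:148969923-148969982) and, 776 bases downstream, A_51_P321643 (chr4:148969147-148969206). A_51_P321643 stood at 1.45, 1.77 and 1.76 in knockout hearts against 1.86, 2.01 and 1.95 in dflox hearts at 1 month. At 2 months it stood at 1.91, 1.57 and 1.79 in knockout hearts against 1.76, 1.91 and 2.03 in dflox hearts. The knockout hearts were all below the dflox hearts at 1 month, where 9.26% of all tested probes were, and the groups overlapped at 2 months. The averaged difference was −0.21 (SE 0.0928, 95% interval −0.42 to −0.01, adjusted p = 0.279) and did not pass, nor did those at 1 month (−0.28, adjusted p = 0.586) and 2 months (−0.14, 0.612).

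The other H6pd probe, A_52_P83549, ran from −1.18 to −0.89 in knockout and −1.04 to −0.78 in dflox hearts at 1 month, and from −1.16 to −0.72 in knockout and −1.30 to −0.73 in dflox hearts at 2 months. The genotypes overlapped at both ages, and the averaged difference was −0.03 (95% interval −0.31 to 0.24, adjusted p = 0.919). The 2 probes correlated at 0.54 over 12 arrays. Most like A_51_P321643 were Prr15l (r = 0.93), the pyrimidine synthesis gene Cad (0.92) and Fhad1 (0.91). By age, the 7 tested probes other than that of Hsd11b1 differed by −0.28 to 0.62 in knockout and −0.08 to 0.22 in dflox hearts, and none passed.

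Hsd11b2, which inactivates corticosterone, was well above background on 1 of 12 arrays, knockout 2-month replicate 3. Its measured levels were −6.19 to −5.61 in knockout against −7.54 to −6.75 in dflox hearts at 1 month, and −6.74 to −5.68 in knockout against −6.59 to −6.21 in dflox hearts at 2 months. All but 1 of these values lie where the scanner cannot tell the spot from its background, so they carry no order and no fold.

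**Figure D3:**
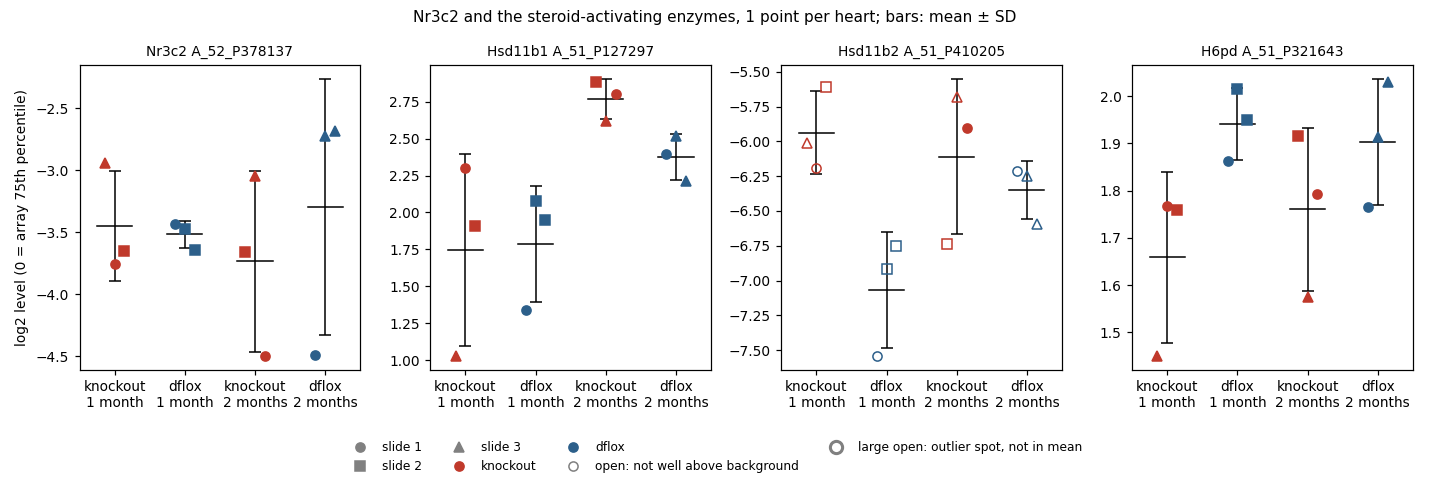
Log2 level (0 is the array's 75th percentile) of the tested Nr3c2 and Hsd11b1 probes, the Hsd11b2 probe and H6pd A_51_P321643, 1 point per heart, shaped by slide, with mean and SD. Open points were not well above background. The 4 slide 3 hearts are the highest for Nr3c2, and all 2-month hearts lie above their genotype's 1-month hearts for Hsd11b1.

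Lists of genes around these members were read by the brightest tested probe of each gene, and differences are given as averages over both ages. The share of all 18258 genes whose brightest probe was called was 0.838% at 1 month, 2.14% at 2 months and 4.19% averaged, and the median difference over these genes was 0.00, −0.08 and −0.05. Of the chaperones that hold the receptors, 14 of 14 were tested and limma called 0 in any genotype comparison, with a median of 0.01. The smallest p values were those of Fkbp5 (−0.55, adjusted p = 0.159), an inhibitory cochaperone that is also a glucocorticoid target, St13 (0.21, 0.188) and the HSP90 gene Hsp90ab1 (0.22, 0.4). At an unadjusted p under 0.05, 1 of the 14 was past the threshold at 1 month, 1 at 2 months and 2 averaged. Of all 26979 tested probes, not only the brightest of each gene, 2400, 4055 and 4543 were past it in that order. The unadjusted counts of the lists below stand against the same background.

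Of the receptor coregulators 14 of 14 were tested and 0 called by limma (0, 2 and 1 at an unadjusted p under 0.05, in the order 1 month, 2 months, averaged), with a median of 0.01. Ppargc1a, a coactivator of mitochondrial genes, stood at −0.58 (adjusted p = 0.148), the Mediator subunit gene Med1 at −0.17 (0.362) and the coactivator gene Ncoa1 at −0.20 (0.384). Of the other receptors of the NR3 family 4 of 7 were tested and 0 called by limma (0, 1 and 1 unadjusted), with Esrra at −0.22 (0.251), Esrrg at 0.11 (0.576) and Esrrb at −0.08 (0.769). Pgr, Esr1 and Esr2 did not pass the filter on dim probes.

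The steroid-making genes had 6 of 11 tested, with a median of 0.01. Fdxr, which encodes the reductase that passes electrons to mitochondrial steroid-making enzymes, rose by 0.34 (SE 0.0672, adjusted p = 0.0177). Its level was 1.34, 1.51 and 1.47 in knockout against 0.98, 1.09 and 1.06 in dflox hearts at 1 month. The 2-month levels were 1.51, 1.58 and 1.59 in knockout against 1.25, 1.38 and 1.20 in dflox hearts. The genotypes did not overlap at either age, as for 2.77% of all tested probes in the higher direction, and the call was lost in 3 of 12 fits, those without dflox 1-month replicate 1 (adjusted p = 0.0575), knockout 1-month replicate 2 (0.0624) or knockout 1-month replicate 3 (0.0597). It was also lost at a difference of 0.40 with normexp (0.0621), 0.34 with no filter (0.06) and 0.37 with place in the model (0.145), none of them smaller than that reported. Fdx1, the partner of that reductase, stood at −0.27 (adjusted p = 0.151) and Cyp17a1 at −0.23 (0.383). The clearance and transport genes had 6 of 10 tested and 0 called by limma (0, 0 and 1 unadjusted), with a median of −0.16, Srd5a1 at −0.35 (0.273), Abcb1a at −0.20 (0.362) and Abcb1b at −0.12 (0.592). The genes of NADPH supply and glucose-6-phosphate entry had 10 of 10 tested and 0 called by limma (0, 1 and 0 unadjusted), with a median of −0.01, Idh1 at −0.23 (0.305), Pgd at 0.29 (0.341) and Me1 at 0.27 (0.4).

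Of 21 genes known as targets of the receptors, 20 were tested: 1 was called at 1 month, 2 at 2 months and 5 averaged, 4 lower and 1 higher, where 1.97% of all genes were called lower and 2.22% higher. The list had medians of −0.38, −0.46 and −0.35. It was chosen with earlier results of these data known, so its share of calls is no independent test. Agt, which encodes angiotensinogen, fell by 2.39 (adjusted p = 2.14e-05), and its level was −2.25 to −1.47 in knockout against 0.30 to 0.93 in dflox hearts at 1 month and −2.01 to −1.85 in knockout against 0.42 to 0.58 in dflox hearts at 2 months. The metallothionein gene Mt1 fell by 0.99 (adjusted p = 0.0065), the transcription factor gene Cebpb by 0.65 (0.00659) and Klf9, another transcription factor gene, by 0.47 (0.0367). The cell cycle inhibitor gene Cdkn1a rose by 1.21 (0.000843).

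Cebpb stood at 2.99, 2.96 and 2.79 in knockout against 3.54, 3.68 and 3.71 in dflox hearts at 1 month. The 2-month levels were 2.73, 2.61 and 2.65 in knockout against 2.91, 3.21 and 3.55 in dflox hearts, so the genotypes did not overlap at either age, as for the 2.87% given above. Agt, Cdkn1a, Mt1 and Cebpb kept their averaged calls in all 12 fits without 1 heart, whereas Klf9 kept its call in 3 (without dflox 1-month replicate 1, dflox 2-month replicate 2 or knockout 2-month replicate 1). Klf9 also lost it with quantile normalization (−0.43, adjusted p = 0.0708), normexp (−0.41, 0.0855) and no filter (−0.47, 0.0912). Once place entered the model, Mt1 stood at −1.08 (adjusted p = 0.0854), Cebpb at −0.49 (0.183) and Klf9 at −0.39 (0.375), and all 3 calls were lost. The marker lists that separated the genotypes by summed level were not tested for their part in these differences. They were airway, fibroblast, endothelial, mesothelium and skeletal muscle at 1 month, macrophage at 2 months, and smooth muscle and pericyte at both. The last list was not higher by mean log2 level.

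**Figure D4:**
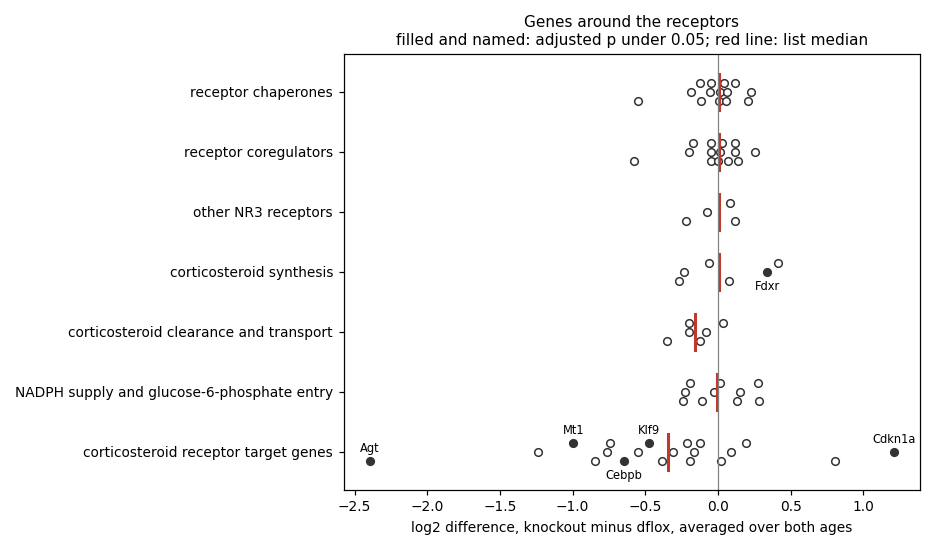
Averaged log2 difference of knockout minus dflox for the tested members of 7 lists around the receptors, 1 point per gene by its brightest tested probe, with each list's median in red. Filled, named points passed the test: Fdxr among the steroid-making genes and Agt, Mt1, Cebpb, Klf9 and Cdkn1a among the receptor targets.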

How the data were processed

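RNA from 12 hearts was labelled with Cy3 and hybridised to 1-colour Agilent arrays, per the labels. Spots were quantified by the authors in Agilent Feature Extraction (version 9.5 per the submitters' processing notes and 9.5.3.1 per the file headers). Their deposited processed signal is an intensity on a linear scale, background-corrected within each array, per the file headers. The authors' series matrix repeats this intensity, equal in 100% of its 45018 values per array (relative tolerance 1e-06), with no scaling between arrays. Probe positions are those of the file headers, on build mm7.

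From these values, control spots and spots marked as uneven or as population outliers were left out (67 to 241 per array). The log2 of the intensity was taken relative to each array's 75th percentile, and spots of 1 probe were averaged. A probe was tested if some group had it well above background on its 3 arrays, which left 26979 of 41174. Marker sums kept outlier spots. Names were updated through RefSeq accessions of GRCm38.p6 tables, from which no coordinates were used: 22951 probes by accession, 124 by another accession, 3077 by an older symbol, 6582 already current and 8440 with the file's name kept. Tables were read in R 4.3.3 (data.table version 1.17.8), where limma 3.58.1 fitted 4 group means to 12 arrays (8 residual and 2.43 prior degrees of freedom). Tests were two-sided, with Benjamini-Hochberg adjustment over all tested probes within a comparison and a threshold of 0.05. With 3 hearts against 3, exact permutation cannot reach a p below 0.1. The number of arrays limits the precision. The script was tested on simulated data. Plots were drawn with matplotlib.

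Named genes were all members, the members of 7 lists that were called in a genotype comparison or among the 3 smallest p for the averaged one, and the 3 named probes most correlated with each member's brightest tested probe over at least 10 arrays. The members and lists were chosen with earlier results of these data known. The alternatives were quantile normalization, normexp (offset 50), no filter on dim probes, a stricter filter, outlier spots kept, the series matrix, the brightest probe per gene, slide, place and replicate number as terms, only the groups compared, single slides and each heart left out. The age difference averaged over genotypes was added after the data were seen.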

Additional observations from a re-analysis of the deposited data

How the results depend on the processing

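The number of hearts and, for Nr3c2 and Hsd11b2, signal near background limit these results. Of the Nr3c1 results on A_52_P138090, the averaged fall kept its direction and call in 22 of 22 alternatives (−1.04 to −0.81). These alternatives are not independent. Keeping outlier spots and using the series matrix give the same values. For 2 of the fits without 1 heart, the spot of that heart was already left out. At 1 month it was called, at −0.85, with outlier spots kept and with the series matrix values. At 2 months it lost its call at −0.92 with normexp and at −1.09 with only the groups compared. Within slide 1 it was −0.92 at 1 month and −1.35 at 2 months. The stricter filter gave it no value, since its 2 outlier spots fail that filter. Without 1 heart it ran from −0.84 to −0.62, −1.18 to −0.997 and −0.96 to −0.85 at 1 month, at 2 months and averaged.

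Counts of called probes moved more. At 1 month 193 became 93 with no filter on dim probes, 128 with slide as a fixed term, 4 with place as a term and 90 to 252 without 1 heart. At 2 months 535 became 301 with normexp, 296 with no filter, 96 with only the groups compared and 300 to 464 without 1 heart. Averaged, 1075 became 656 with normexp, 698 with no filter, 328 with place and 693 to 1042 without 1 heart, and for the change between ages 0 became 1 with place and stayed 0 without 1 heart. By age in knockout hearts 78 became 42 with normexp, 17 with no filter, 49 with slide, 20 with place, 0 with only the groups compared (limma, 3361 unadjusted in the full fit) and 5 to 59 without 1 heart. In dflox hearts 123 became 77, 25, 12, 39 and 0 under the same settings and 17 to 154 without 1 heart. Averaged over genotypes 1040 became 382 with normexp, 364 with no filter, 566 with slide and 370 to 914 without 1 heart. The share of higher calls in the averaged genotype comparison was 41.5% with normexp and 58.9% with quantile normalization, against 52% as reported. With quantile normalization it was 40% against 52% by age in dflox hearts and 33.5% against 44.2% by age averaged. The cause of these moves was not tested.

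Signs turned only for differences that had not passed. Hsd11b1 at 1 month was 0.16 with slide and −0.32 to 0.32 without 1 heart. Nr3c2 at 1 month was −0.060 with normexp, −0.26 with slide and −0.19 to 0.22 without 1 heart, and averaged it was 0.030 with place and −0.48 to 0.0048 without 1 heart. Nr3c1 A_51_P355693 at 2 months was −0.58 to 0.14 without 1 heart. H6pd A_51_P321643 at 2 months was 0.071 with normexp. H6pd A_52_P83549 at 2 months was −0.093 with normexp, −0.040 with slide and −0.10 to 0.21 without 1 heart, and averaged it was −0.12 to 0.037 without 1 heart.

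Equal replicate numbers did not pair the samples (correlations of deviations −0.45 to 0.52), and 5 of 12 samples correlated best with their own number. With the replicate block, 142, 420 and 920 probes were called for the genotype comparisons and 27 in place of 78 by age in knockout hearts. Nr3c1 A_52_P138090 was −0.63, −1.09 and −0.86 with the block, its calls as without it, and A_52_P254174 lost its averaged call (adjusted p = 0.0734 by limma).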
